A study of Mus musculus with 20 samples.

Results

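Acute-phase proteins are plasma proteins whose synthesis by the liver changes with infection, injury or inflammation, and metallothioneins are small cysteine-rich proteins that bind zinc and copper and are also raised in the acute phase. The genes described here are 10: the serum amyloid A genes Saa1, Saa2 and Saa3, the orosomucoid genes Orm1 and Orm2, the lipocalin Lcn2, haptoglobin (Hp), hemopexin (Hpx), and the metallothioneins Mt1 and Mt2. They were taken by symbol from the deposited count table, which held 46095 gene symbols, and all 10 were found and were among the 14440 genes with enough counts to be tested. Livers came from wild-type (WT) mice and from Pck1-cKO mice (KO below), in which Pck1, the gene of the gluconeogenic enzyme phosphoenolpyruvate carboxykinase, was deleted in the liver. Each genotype was fed a chow diet or a NASH diet, a diet that induces non-alcoholic steatohepatitis, for 24 weeks. Their age was 31 to 33 weeks. There were 5 mice in each of the 4 groups (WT chow, WT NASH, KO chow and KO NASH), with 1 library of whole liver per mouse. The labels give neither strain nor sex, nor the Cre line behind the knockout, nor whether WT mice carried floxed alleles or Cre.

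In the acute phase, interleukin 1 and interleukin 6 released by macrophages and other cells act on receptors of hepatocytes. The transcription factors NF-kB, STAT3 and the C/EBP family then raise transcription of the serum amyloid A, orosomucoid, haptoglobin, hemopexin and lipocalin genes, while albumin and transthyretin fall. Glucocorticoids add to this response. Metallothionein genes respond to zinc through the factor MTF1 and to glucocorticoids and cytokines. Serum amyloid A proteins bind to high-density lipoprotein. Orosomucoids carry lipophilic molecules. Lipocalin 2 withholds iron from bacteria by binding their siderophores, haptoglobin binds free haemoglobin, and hemopexin binds free haem.

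Deposited counts summed to between 9958935 and 20601955 per library. The targeted gene, Pck1, lay at 1700 to 4637 CPM (each count as a share of its library's scaled total) in the 10 WT libraries and at 300.1 to 860.2 CPM in the 10 KO libraries, so the genotypes did not overlap. Sex was read from 4 Y-linked genes: all 5 WT chow libraries were male, 1 WT NASH library (replicate 4) was male, 3 KO chow libraries were male, and 4 KO NASH libraries were male (all but replicate 2). Each library was also set against the average library, and the slope of that difference in log2 expression on transcript length was taken. In 6 libraries this slope was negative, from -0.343 to -0.247, so that long transcripts had relatively fewer reads; these were 3 WT chow mice (replicates 3, 4 and 5), 1 WT NASH mouse (replicate 4) and 2 KO chow mice (replicates 4 and 5). The other 14 lay between 0.0099 and 0.194. The median lengths of the members' coding transcripts were all short, from 449.5 bases for Mt2 to 1377.5 bases for Saa3.

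Of the 20 libraries, 3 stood far from the rest for these genes: WT chow replicate 4, WT NASH replicate 4 and KO chow replicate 5. All 3 lay above each of the other 17 libraries for 7 of the 10 members (Saa1, Saa2, Saa3, Orm1, Orm2, Lcn2 and Hpx). Over all tested genes, 839 (5.81%) had all 3 above the other 17, and 332 (2.3%) had all 3 below. The 3 were picked by the members' own values, so the 7 of 10 describes that choice and is no test. The members made up 4.13%, 3.55% and 2.4% of all counts in these 3 libraries and between 0.509% and 1.57% in the other 17. No KO NASH library was of this kind. All 3 are among the 6 libraries of negative slope, 2 are male and 1 is female, and the part of slope or sex in their high values was not tested. Each result below that rests on them is given with and without them.

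**Figure D1:**
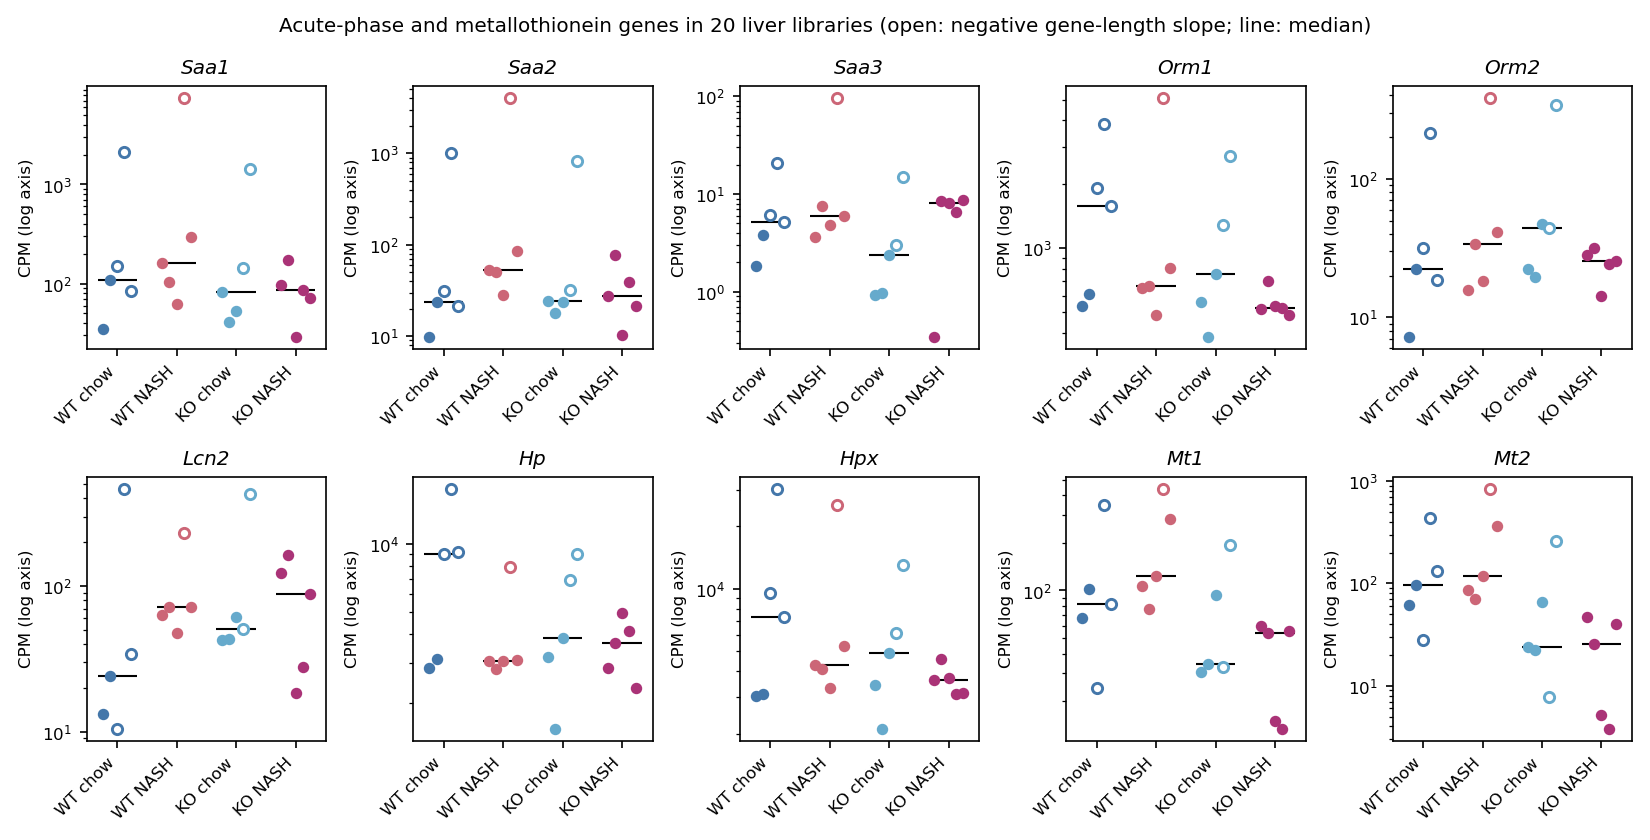
Level of each of the 10 genes in each library, in CPM on a log axis, by group; each point is 1 mouse, open points are the 6 libraries with a negative length slope, and the bar is the median of 5. In WT chow, WT NASH and KO chow a single open point stands far above the other 4 mice for Saa1 (2106, 7471 and 1448 CPM), while the 5 KO NASH mice all lie at or below 173 CPM.

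The members sit in gene clusters. In the mouse genome (build GRCm38) Saa1 (chr7:46740497-46742980, minus strand), Saa2 (chr7:46751790-46754313, plus strand) and Saa3 (chr7:46711998-46715700, minus strand) share a stretch of 42.3 kb with Saa4. Orm1 (chr4:63344560-63348163) and Orm2 (chr4:63362449-63365878), both on the plus strand, share 21.3 kb with Orm3. Mt1 (chr8:94179082-94180327) and Mt2 (chr8:94172664-94173568), both on the plus strand, share 43.1 kb with Mt3 and Mt4. Lcn2 (chr2:32384633-32388252), Hp (chr8:109575128-109579172) and Hpx (chr7:105591613-105600137) lie on the minus strand. Of all stretches of 50 bases in their transcripts, 14.8% of those of Saa1 and 11.2% of those of Saa2 recur in another member of the family, as do 20.4% for Orm1 and 21.8% for Orm2, so reads could be split between these copies and their separate values are uncertain. For Saa3 the share is 0.352%, and for Mt1 and Mt2 it is 0. An antisense gene, Gm45774, overlaps Mt2 on the other strand, and since it is not given whether counting used the strand, reads of the pair cannot be told apart.

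The sequence just before the start of transcription was taken from RefSeq (GRCm38.p6), where 8 of the 10 members had an entry (all but Orm1 and Hp). Printed are the upstream stretches of both close Saa copies, of the diverged Saa3, and of both metallothioneins, the genes on which the results turn. Capitals in the Saa sequences mark the C/EBP-type motif TTNNGCAA, and in the Mt sequences the core of the metal response element, TGCACNC or TGCGCNC, each searched on both strands. Saa1 is chr7:46743031-46743180 (minus strand), Saa2 is chr7:46751633-46751782 (plus), Saa3 is chr7:46715727-46715876 (minus), Mt1 is chr8:94178932-94179081 (plus) and Mt2 is chr8:94172448-94172597 (plus).
Saa1: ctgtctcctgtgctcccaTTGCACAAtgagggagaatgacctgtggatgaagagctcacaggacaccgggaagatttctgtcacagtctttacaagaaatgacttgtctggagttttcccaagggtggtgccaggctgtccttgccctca
Saa2: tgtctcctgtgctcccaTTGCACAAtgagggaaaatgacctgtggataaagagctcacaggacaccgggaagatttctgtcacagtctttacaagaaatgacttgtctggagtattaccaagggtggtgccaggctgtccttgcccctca
Saa3: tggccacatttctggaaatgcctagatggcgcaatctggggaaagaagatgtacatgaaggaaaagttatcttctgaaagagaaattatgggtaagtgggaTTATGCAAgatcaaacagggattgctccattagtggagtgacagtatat
Mt1: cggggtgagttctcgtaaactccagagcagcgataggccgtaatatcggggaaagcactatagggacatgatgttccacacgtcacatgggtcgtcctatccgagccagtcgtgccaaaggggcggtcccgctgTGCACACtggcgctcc
Mt2: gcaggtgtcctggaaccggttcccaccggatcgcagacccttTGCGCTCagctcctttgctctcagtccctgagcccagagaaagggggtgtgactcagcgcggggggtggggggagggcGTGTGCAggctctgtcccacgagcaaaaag

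In the 250 bases before the start, Saa1 and Saa2 were identical at 94.8% of aligned positions, Saa1 and Saa3 at 48.5%, and Mt1 and Mt2 at 46.3%. The motif TTNNGCAA was found in 7 of the 8 members with a sequence (Saa1, Saa2, Saa3, Orm2, Lcn2, Hpx and Mt2) and in 9.56% of all 32851 promoter windows of that length. With positions counted back from the start of the RefSeq transcript, it began at -182 in Saa1 and -183 in Saa2, and at -99 in Saa3. The metal response core was found once in Mt1 (at -23) and 3 times in Mt2 (at -223, which lies outside the printed stretch, and at -128 and -50), in no other member, and in 21.4% of all windows. Only 1 start per gene was used, and bases past that start were not searched. These are therefore not counts over a whole promoter, and Mt1 and Mt2 cannot be ranked by them. A STAT-type motif, TTCNNNGAA, was in 0 of the 8 and in 7.02% of windows, and the NF-kB consensus was in 0 of the 8 and in 7.25%. No match of one motif overlapped a match of another. The motifs were picked with the sequences in view, and a match is a description of letters, not a measured site.

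Levels between genes were compared as CPM per kilobase of transcript, as the median over 20 libraries. Hpx was highest with 4009 CPM per kb, followed by Hp with 2539 and Orm1 with 851. Saa1 (164), Mt2 (142) and Mt1 (113) formed a middle group, then came Lcn2 (61.8), Saa2 (49.1) and Orm2 (34.6), and Saa3 was lowest with 4.02. The ranges of every neighbouring pair in this order overlapped over the libraries. The genes also differed in how much they varied: the spread between mice within groups (the biological coefficient of variation) was 139% for Saa2, 125% for Saa1 and 53.9% for Hp, with 39% as the common value over all genes.

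Saa1 and Saa2 encode the serum amyloid A proteins that hepatocytes secrete in the acute phase. Saa1 was at 35.1, 109, 152, 2106 and 83.7 CPM in WT chow replicates 1 to 5 and at 163, 103, 62.1, 7471 and 294 CPM in WT NASH. In KO mice it was at 83.0, 40.8, 52.6, 143 and 1448 CPM on chow and at 96.5, 173, 28.6, 85.1 and 71.1 CPM on the NASH diet. In each of the first 3 groups 1 mouse was 10.1 to 25.4 times above the next, whereas in KO NASH the highest was 1.79 times the next; all 4 groups overlapped.

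Saa2 followed its neighbour with lower values. It was at 9.71, 23.4, 31.4, 1004 and 21.6 CPM in WT chow mice and 53.1, 50.4, 28.1, 4034 and 86.1 CPM in WT NASH. Its KO values were 24.1, 17.8, 23.6, 32.4 and 823 CPM on chow and 27.2, 77.9, 10.4, 39.3 and 21.5 CPM on the NASH diet. The same 3 mice were high, here 25.4 to 46.8 times above the next of their group, and the remaining 17 libraries lay between 9.71 and 86.1 CPM. The ratio of Saa1 to Saa2 stayed between 1.76 and 4.83 in every library, with medians of 3.87 and 2.21 in WT mice (chow, then NASH diet) and of 2.29 and 2.74 in KO mice.

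Saa3 is the family member made mostly by macrophages and other cells outside the hepatocyte. Its level was low, at 1.84, 3.85, 6.17, 21 and 5.13 CPM in WT chow mice and 3.62, 7.53, 4.84, 96.4 and 5.94 CPM in WT NASH. Among KO mice it was at 0.926, 0.965, 2.38, 2.98 and 15.1 CPM on chow and 0.341, 8.46, 8.20, 6.61 and 8.80 CPM on the NASH diet. The same 3 mice were highest, and KO NASH replicate 1, with 8 counts, was lowest of all 20. The other 4 KO NASH mice lay above the 4 lowest KO chow mice and below KO chow replicate 5, so the groups overlapped.

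Orm1 encodes the main orosomucoid, and Orm2 a close copy at a lower level. Orm1 was at 536, 612, 1933, 3842 and 1584 CPM in WT chow mice and 650.3, 668, 485, 5102 and 805 CPM in WT NASH. KO mice had 562, 381, 758, 1287 and 2718 CPM on chow and 516, 704, 535, 525 and 485 CPM on the NASH diet. KO NASH was the tightest group, with no value above 704 CPM, and in the groups that held both kinds of library every library of negative slope (1287 to 5102 CPM) lay above every other (381 to 805 CPM).

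Orm2 showed the 3 high mice but not this split. It was at 7.17, 22.5, 31.7, 214 and 18.5 CPM in WT chow mice and 15.7, 33.6, 18.4, 384 and 41.6 CPM in WT NASH, and at 22.5, 19.5, 47.2, 44.4 and 339 CPM in KO chow and 28.0, 31.9, 14.3, 24.2 and 25.7 CPM in KO NASH. Outside WT chow replicate 4, WT NASH replicate 4 and KO chow replicate 5 its range was 7.17 to 47.2 CPM and all groups overlapped.

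Lcn2 encodes lipocalin 2, which both hepatocytes and neutrophils make. WT mice had 13.2, 24.0, 10.4, 460.2 and 34.4 CPM on chow and 63.1, 72.3, 47.3, 231 and 71.4 CPM on the NASH diet. KO mice had 42.4, 43.1, 61.6, 51 and 427 CPM on chow and 123, 163, 18.5, 27.7 and 88.1 CPM on the NASH diet. Apart from WT chow replicate 4, the WT chow mice (10.4 to 34.4 CPM) lay below all WT NASH mice and all KO chow mice, but that 1 mouse had the highest value of all 20, so that neither pair of groups was separate. KO NASH split into 3 mice at 88.1 to 163 CPM and 2, replicates 3 and 4, at 18.5 and 27.7 CPM.

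Haptoglobin and hemopexin, the scavengers of haemoglobin and haem, were the most abundant members. Hp was at 2845, 3099.8, 9027, 17381 and 9179 CPM in WT chow mice and 3057, 2816, 3054, 7946 and 3090.1 CPM in WT NASH. It was at 3168, 1533, 3859, 6922 and 9045 CPM in KO chow and 2841, 3662, 4967, 4136 and 2326 CPM in KO NASH. In WT chow, WT NASH and KO chow the libraries of negative slope (6922 to 17381 CPM) all lay above the others (1533 to 3859 CPM), and the 5 KO NASH libraries, none of negative slope, lay at 2326 to 4967 CPM.

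Hpx behaved alike, at 3052, 3123, 9596, 30088 and 7339 CPM in WT chow mice and 4295, 4088, 3321, 25417 and 5310.4 CPM in WT NASH. KO values were 3435, 2115, 4923, 6139 and 13042 CPM on chow and 3626, 4571, 3719, 3128 and 3142 CPM on the NASH diet. Libraries of negative slope lay at 6139 to 30088 CPM and the others of those 3 groups at 2115 to 5310.5 CPM. For Hp, Hpx and Orm1 the level thus went with the slope within each group that held both kinds, and the part of the slope in these levels was not tested. The ratio of Hp to Hpx had medians of 0.941 and 0.689 in WT mice (chow, then NASH diet) and of 0.784 and 0.801 in KO mice. Of 5 red blood cell markers (4 globin genes and Alas2), edgeR called 2 lower on the NASH diet in each genotype, Hbb-bs and Hbb-bt. This was 40% of the list in each, against 5.93% of all tested genes in WT and 3.29% in KO. The log2 fold change of Hbb-bs was -2.31 in WT (adjusted p = 0.00311) and -2.57 in KO (adjusted p = 0.00468). The other 3 were not called (adjusted p up to 0.41 in WT and 0.658 in KO), and Alas2 was at 0.56 in KO.

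**Figure D2:**
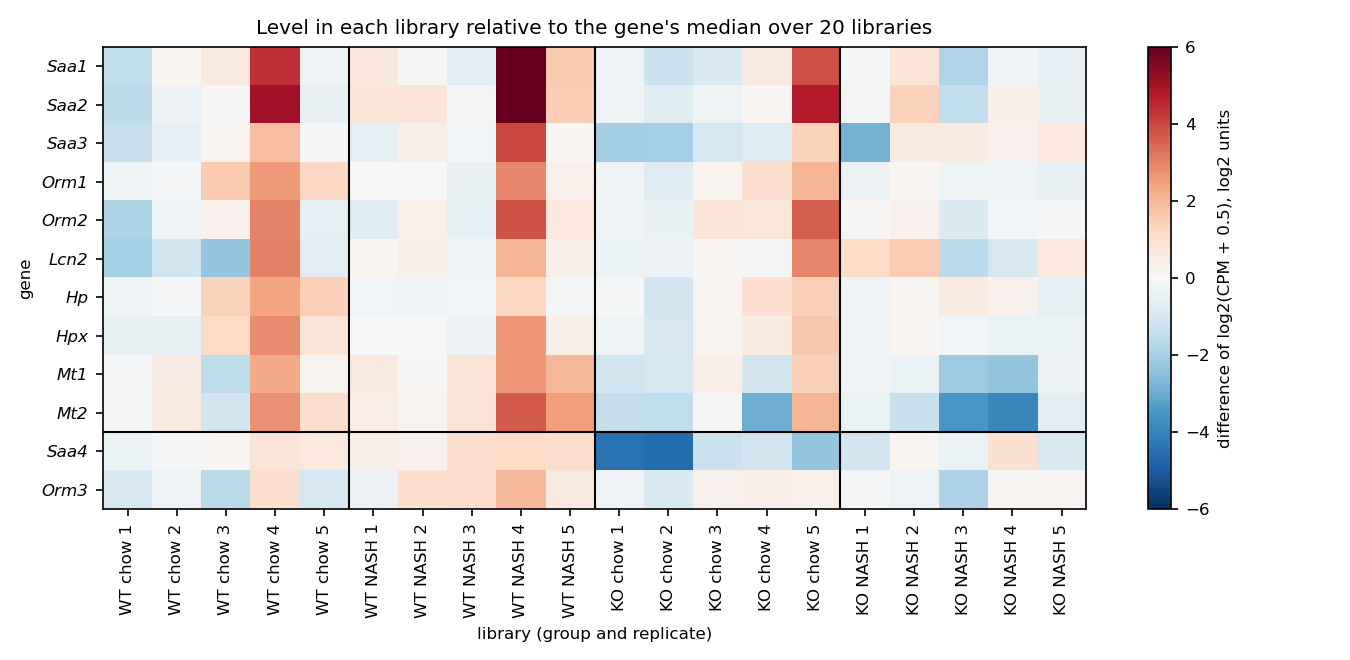
Level of each member and of the relatives Saa4 and Orm3 in each library, as the difference of log2(CPM + 0.5) from the gene's median over 20 libraries; red is above and blue below the median, and the scale ends at 6 log2 units. WT chow replicate 4, WT NASH replicate 4 and KO chow replicate 5 form red columns over the members, Mt1 and Mt2 are bluest in KO NASH replicates 3 and 4, and Saa4 is blue in all 5 KO chow libraries.

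Mt1 and Mt2 were the members in which a difference between genotypes passed the test, on the NASH diet. Mt1 was at 66.8, 102, 24.3, 343 and 82.2 CPM in WT chow mice and at 106, 76.1, 124, 433 and 283 CPM in WT NASH. In KO mice it was at 30.8, 34.6, 93.9, 32.9 and 194 CPM on chow and at 59.4, 54.0, 15.1, 13.4 and 55.3 CPM on the NASH diet. All 5 KO NASH mice lay below all 5 WT NASH mice, with replicates 3 and 4 lowest of all 20 libraries, while KO chow overlapped WT chow.

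Mt2 repeated this order over a wider range. It was at 61.5, 96.4, 28.2, 435 and 131 CPM in WT chow mice and 85.4, 70.4, 117, 827 and 366 CPM in WT NASH. Its KO values were 23.7, 22.4, 65.8, 7.84 and 262 CPM on chow and 47.4, 25.3, 5.15, 3.79 and 40.4 CPM on the NASH diet. Again the NASH groups did not overlap, and KO NASH replicates 3 and 4, at 5.15 and 3.79 CPM, were lowest. The ratio of Mt1 to Mt2 had medians of 0.862 and 1.06 in WT mice (chow, then NASH diet) and of 1.43 and 2.14 in KO mice. In CPM, Mt1 exceeded Mt2 in all 5 KO NASH mice, with ratios of 1.25 to 3.54, and in 4 of 5 KO chow mice. These ratios are not scaled by transcript length, which is 633 bases for Mt1 and 449.5 for Mt2. Medians per kilobase were 85.4 (Mt1) and 56.3 (Mt2) CPM per kb in KO NASH, and 54.7 and 52.7 in KO chow.

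**Figure D3:**
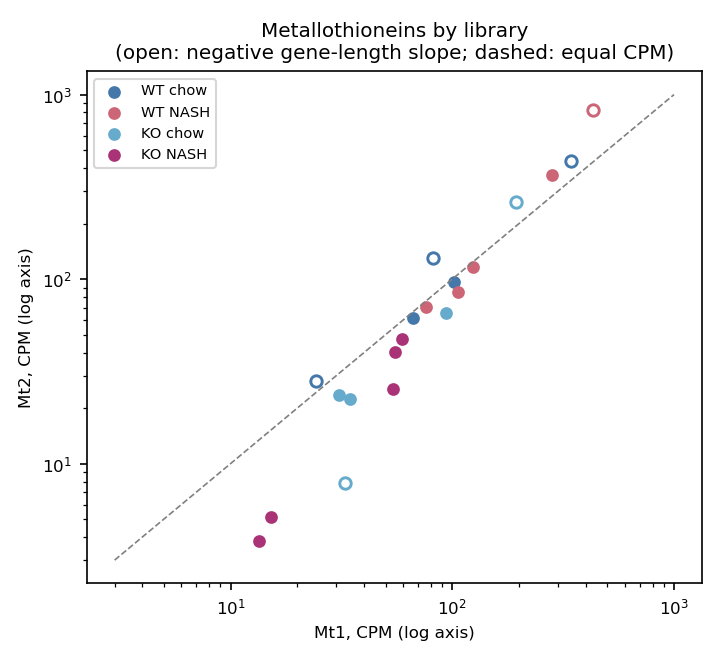
Mt1 (x axis) against Mt2 (y axis) in CPM, both on log axes, with 1 point per mouse, coloured by group; open points are libraries of negative length slope and the dashed line marks equal CPM. The 5 KO NASH mice lie at or below 59.4 CPM of Mt1 and 47.4 CPM of Mt2, and the 5 WT NASH mice at or above 76.1 and 70.4 CPM.

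Tests were made with edgeR's quasi-likelihood test, and a gene is called where its p, adjusted by the Benjamini-Hochberg method over all 14440 genes, is under 0.05. Replicates are separate mice, per the labels. In KO NASH against WT NASH, which asks what loss of Pck1 does on the NASH diet, 2 of the 10 members were called, both lower (Mt1 and Mt2). In that comparison 9.65% of all tested genes were called, 4.74% as lower, and 6.44% had all KO NASH mice below all WT NASH mice, as both metallothioneins did. Before adjustment 5 members and 25.6% of genes had a p under 0.05. Mt1 fell by 2.37 on the log2 scale (SE 0.705, adjusted p = 0.0386, edgeR), from 204 ± 151 to 39.5 ± 23.1 CPM (SD, n = 5). Mt2 fell by 3.58 (SE 1.02, adjusted p = 0.0314, edgeR), from 293 ± 322 to 24.4 ± 19.9 CPM (SD, n = 5). In bulk liver, fewer cells of a type and less RNA per cell cannot be told apart.

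Both metallothioneins were lower in KO NASH in each of 36 alternative analyses, but the call held in 22 for Mt1 and in 23 for Mt2. Those include every analysis that left out 1 chow mouse, which is not part of this comparison. They also include males alone, with 1 WT NASH mouse, which gives no test. With sex, the length slope, both, or replicate number as terms, the call was lost for both genes. It held in edgeR without the 3 libraries of highest members (Mt1 -1.90, adjusted p = 0.0289, and Mt2 -2.71, adjusted p = 0.0269). The call also held without all 6 libraries of negative slope (Mt1 -1.90, adjusted p = 0.0183, and Mt2 -2.71, adjusted p = 0.0155). Both sets were chosen after seeing the data, the 3 by the members' own values, Mt1 and Mt2 among them. Of the 3, WT chow replicate 4 and KO chow replicate 5 enter only the shared estimate of spread. These fits are therefore not independent support for the call. Leaving out WT NASH replicate 4 alone gave -1.90 for Mt1 (adjusted p = 0.11) and -2.71 for Mt2 (adjusted p = 0.097). Neither gene was called without WT NASH replicate 5 (adjusted p = 0.0765 for Mt1 and 0.0562 for Mt2) or without KO NASH replicate 2 (0.0562 and 0.0606), 3 (0.0942 and 0.0742), 4 (0.081 and 0.0626) or 5 (0.0715 and 0.0603). Without KO NASH replicate 1, Mt1 lost its call (adjusted p = 0.0629) and Mt2 kept it (adjusted p = 0.0496).

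Sex differed between the NASH groups. With sex as a term the adjusted p was 0.0797 for Mt1 and 0.0584 for Mt2, and with the length slope as a term it was 0.0583 and 0.0567, with log2 fold changes of -1.83 and -2.51. Within the females, the single KO NASH mouse (Mt1 at 54.0 CPM, Mt2 at 25.3 CPM) lay below all 4 WT NASH mice (Mt1 at 76.1 to 283 CPM, Mt2 at 70.4 to 366 CPM), and the fit of females alone called neither gene (adjusted p = 0.773 and 0.645). Within the males, the 4 KO NASH mice lay at 13.4 to 59.4 CPM of Mt1 and 3.79 to 47.4 CPM of Mt2, against 433 and 827 CPM in the 1 male WT NASH mouse, replicate 4; with 1 library in that group, males give no test of genotype. Hepatocyte markers summed to 58078 to 70965 CPM in KO NASH and to 55873 to 98982 CPM in WT NASH.

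The 8 acute-phase members were not called in KO NASH against WT NASH, although their log2 fold changes were all below 0. The largest were -4.59 for Saa2 (SE 1.69, adjusted p = 0.0896) and -4.15 for Saa1 (SE 1.46, adjusted p = 0.0764), then -1.99 for Orm2 (adjusted p = 0.214), -1.84 for Saa3 (adjusted p = 0.244), -1.48 for Orm1 (adjusted p = 0.163) and -1.22 for Hpx (adjusted p = 0.241), in edgeR's test. Lcn2 was at -0.20 and Hp at -0.15. WT NASH replicate 4 carried these values: without it Saa2 was at -0.63, Saa1 at -0.78, Orm2 at -0.14, Orm1 at -0.24 and Hpx at -0.23, and Saa3 (0.24), Lcn2 (0.41) and Hp (0.25) were above 0. Saa1 was called without WT chow replicate 4 (adjusted p = 0.0478) or without KO chow replicate 5 (adjusted p = 0.0458), 2 high mice outside this comparison that enter the shared estimate of spread. Over the 10 members the median log2 fold change was -1.91, against 0.0039 over all tested genes, and it was -0.23 without WT NASH replicate 4.

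**Figure D4:**
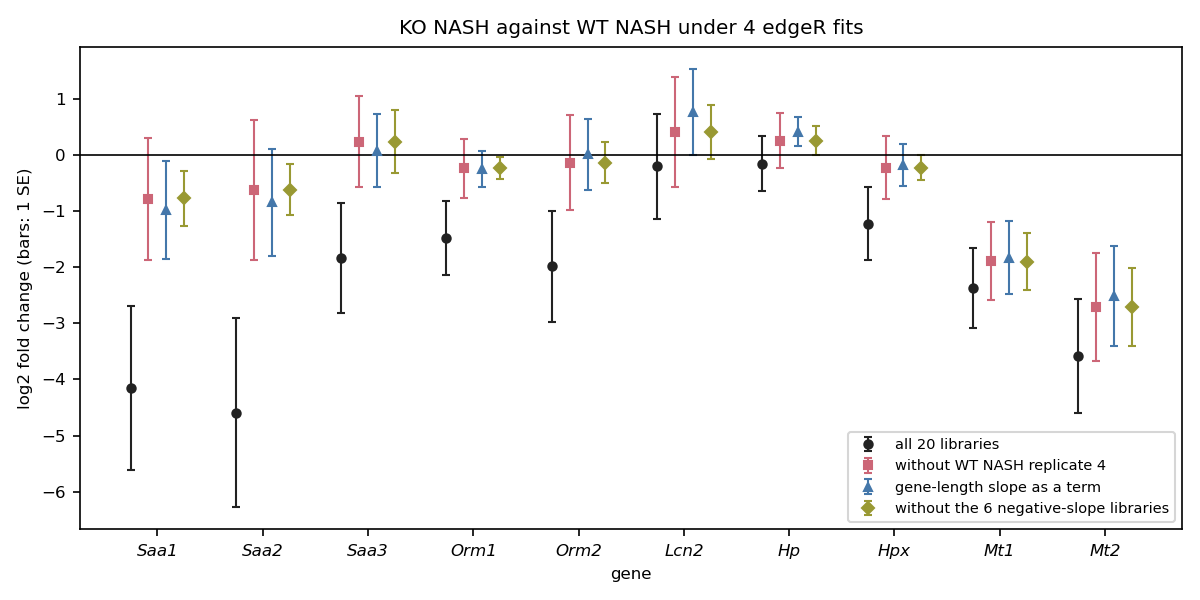
Log2 fold change of each member in KO NASH against WT NASH in 4 edgeR fits, with bars of 1 SE and a line at 0: all 20 libraries (circles), without WT NASH replicate 4 (squares), with the length slope as a term (triangles), and without the 6 libraries of negative slope (diamonds). Saa1 moves from -4.15 to -0.78 when the 1 WT NASH mouse is left out, whereas Mt2 moves from -3.58 to -2.71 and Mt1 from -2.37 to -1.90.

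For the NASH diet in WT mice edgeR called 0 of 10 members, against 5.93% of all tested genes. Only the unadjusted p of Hp, 0.0458, was under 0.05, as it was for 22.1% of genes. WT chow mice were 5 males and WT NASH mice 1 male and 4 females, so diet and sex can hardly be told apart. With sex as a term edgeR called 0 members and 1.11% of all genes. No member was called by DESeq2. In limma voom with sample weights, a fit that called 40.6% of all genes, 3 were lower (Orm1, Hp and Hpx). Hp was at 8306 ± 5928 CPM in WT chow mice and 3992 ± 2213 CPM in WT NASH (SD, n = 5), a log2 fold change of -1.06 (SE 0.497, adjusted p = 0.216, edgeR). The WT chow group held 3 of the libraries of negative slope and WT NASH held 1. Outside those 4 libraries Hp was at 2845 and 3100 CPM in WT chow mice and at 2816 to 3090 CPM in WT NASH. For Saa1 the log2 fold change was 1.70 with all libraries, -1.70 without WT NASH replicate 4 and 4.09 without WT chow replicate 4, none of them called.

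In KO chow against WT chow, which asks what loss of Pck1 does on chow, 0 of 10 members were called by edgeR, against 5.53% of all tested genes, and 0 reached 0.05 before adjustment, as 19.4% of genes did. No member was called by DESeq2, and limma voom, which called 40.4% of all genes, called Orm1, Hp and Hpx as lower. The log2 fold changes ran from -0.98 for Mt2 (adjusted p = 0.605) to 0.69 for Orm2 (adjusted p = 0.733). Mt1 was at 124 ± 126 CPM in WT chow mice and 77.2 ± 70.4 CPM in KO chow, and Mt2 at 150.3 ± 164 and 76.4 ± 106 CPM (SD, n = 5). The value of Mt2 moved with 1 mouse of each group: it was -2.30 (adjusted p = 0.123) without KO chow replicate 5 and -0.044 (adjusted p = 0.988) without WT chow replicate 4.

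In edgeR's fit of all 20 libraries no member was called for the NASH diet in KO mice either. In KO NASH against KO chow edgeR called 0 of 10, against 3.29% of all tested genes, with 0 members and 22.2% of genes under 0.05 before adjustment, and DESeq2 and limma voom called 0. Log2 fold changes ran from -2.38 for Saa2 (adjusted p = 0.354) to 0.55 for Saa3 (adjusted p = 0.753). Saa3 was the 1 member called when the length slope was a term (adjusted p = 0.0478). Without KO chow replicate 5 the value of Saa1 went from -1.96 to 0.15 and that of Saa2 from -2.38 to 0.50.

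The interaction asks whether the effect of the knockout differs between the diets (its value on the NASH diet minus its value on chow). It was called for 0 of 10 members by edgeR, against 0.139% of all tested genes, with 0 members and 8.25% of genes under 0.05 before adjustment. DESeq2 called 0 and limma voom called 1 (Hp, higher). It was -1.69 (SE 0.955, adjusted p = 0.698) for Mt1 and -2.61 (SE 1.32, adjusted p = 0.638) for Mt2. The lower metallothioneins of KO mice were therefore not shown to differ between the diets.

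Of the relatives in the same clusters, Saa4, the constitutive serum amyloid A of the liver, had a pattern of its own. It was at 203, 248, 286, 459 and 407 CPM in WT chow mice and 351, 323, 511, 604 and 549 CPM in WT NASH, and at 11.5, 10.5, 109, 119.9 and 52.5 CPM in KO chow and 119, 295, 202, 506 and 137 CPM in KO NASH. All 5 KO chow mice lay below all 5 WT chow mice, as 2.65% of tested genes did. Saa4 fell by 2.40 on the log2 scale in KO chow against WT chow (SE 0.572, adjusted p = 0.019, edgeR), from 321 ± 108 to 60.8 ± 52.2 CPM (SD, n = 5), and was called whichever library was left out (adjusted p up to 0.0451). It was not called without the 3 libraries of highest members (adjusted p = 0.0502), without the 6 of negative slope (0.104), in males alone (0.0546) or when the 2 groups were fitted by themselves (0.0885). In KO NASH against KO chow it rose by 2.05 (adjusted p = 0.0494), a call that held in 2 of 20 analyses that left out 1 library, those without WT NASH replicate 4 or KO chow replicate 3; the other 18 gave adjusted p-values up to 0.137. Its interaction was 1.51 (adjusted p = 0.644).

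**Figure D5:**
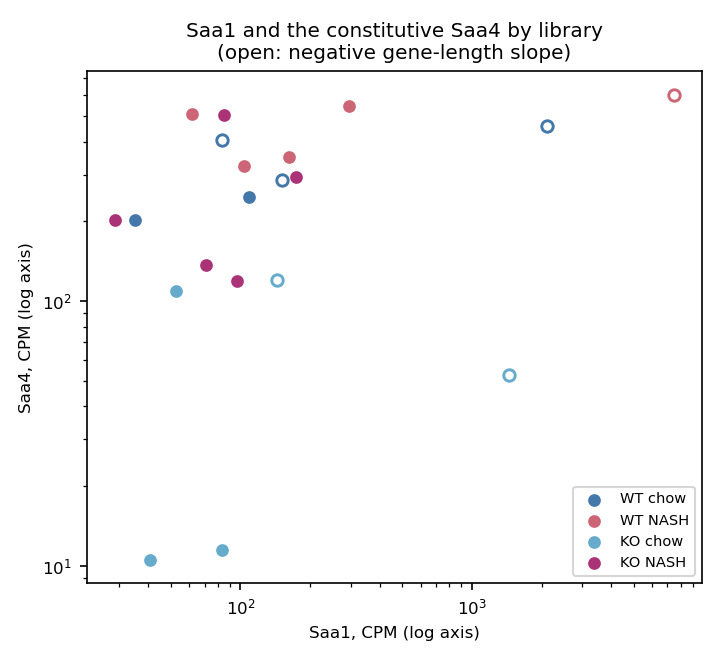
Saa1 (x axis) against its relative Saa4 (y axis) in CPM, both on log axes, with 1 point per mouse, coloured by group; open points are libraries of negative length slope. KO chow lies lowest for Saa4, at 10.5 to 120 CPM, and KO chow replicate 5 has 1448 CPM of Saa1 with 52.5 CPM of Saa4.

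Orm3, at 2.67 to 43.5 CPM, was called in no comparison by the edgeR fit of all 20 libraries. Its log2 fold change was 1.34 in WT NASH against WT chow (adjusted p = 0.112) and -1.31 in KO NASH against WT NASH (adjusted p = 0.0937). Alternatives called Orm3 in the first of these in 5 of 35 cases (limma voom 0.0208, a replicate block 0.0414, the slope as a term 0.034, without WT chow replicate 4 0.0201, and without the 3 libraries of highest members 0.0242) and in the second in 3 of 36 (DESeq2 0.0452, limma voom 0.0334, and without WT chow replicate 4 0.0488; all adjusted p). Mt3, the metallothionein of the brain, had 1 count in all libraries together. Mt4, that of stratified epithelia, had 0, which allows up to 0.121 to 0.441 CPM per library (3 counts, counting error only). Of the 4 genes of the cluster, Mt1 and Mt2 alone were thus measured above a single count.

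Other positive acute-phase genes were 18, all tested. In KO chow against WT chow edgeR called 1 (5.56% of the list, 5.53% of all genes), and in KO NASH against WT NASH 3 (16.7%, against 9.65%). DESeq2 called 3 and 5 there, and limma voom 8 and 6. In WT NASH against WT chow and in KO NASH against KO chow 0 were called by edgeR, with 2 and 3 at an unadjusted p under 0.05; DESeq2 called 0 and 3 there, and limma voom 5 and 2. Il1rn, which encodes the interleukin 1 receptor antagonist, rose in KO chow against WT chow, the 1 call there, by 2.61 on the log2 scale (adjusted p = 0.000485; 18.4 ± 8.36 to 112 ± 49.3 CPM, SD, n = 5), and in KO NASH against WT NASH by 2.08 (adjusted p = 0.0014; 11.4 ± 4.93 to 47.8 ± 16.6 CPM), with no overlap in either. In KO NASH against WT NASH 3 were called in all: Il1rn, Cd14 (2.00, adjusted p = 0.0452), a lipopolysaccharide co-receptor, and Mbl2 (-1.80, adjusted p = 0.042), a mannose-binding lectin. Both calls of Il1rn held whichever library was left out. Cd14 lost its call without WT chow 3, WT NASH 1, 2, 4 or 5, or KO NASH 1, 3 or 5 (adjusted p up to 0.14), and Mbl2 without WT chow 3, WT NASH 2, 4 or 5, KO chow 4, or any KO NASH replicate (adjusted p up to 0.117). The median log2 fold change of the 18 genes in KO NASH against WT NASH was -0.55. Apcs, which encodes serum amyloid P, was the 1 gene of the 18 in which all 3 high mice (1863, 1388 and 1695 CPM) lay above the other 17 (55.8 to 627 CPM).

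Negative acute-phase genes, those that fall in the response, were 10, and 1 was called in 1 comparison. Rbp4, which carries retinol in plasma, was lower in WT NASH against WT chow (-1.04, adjusted p = 0.0422, edgeR), with no overlap. It made up 10% of the list, and 5.93% of all tested genes were called there. DESeq2 called 4 of the 10 in that comparison (2 higher, 2 lower) and limma voom 6 (3 higher, 3 lower). Rbp4 lost its call in edgeR without WT chow 3 or 5, WT NASH 1, 2, 3 or 5, or KO NASH 1, 4 or 5 (adjusted p up to 0.127). In the other 3 comparisons of groups edgeR called 0 of the 10, with 1 or 2 under 0.05 before adjustment; by DESeq2 it was 0 or 1 and by limma voom 2 to 5. In the 3 high mice Apoa1, the main protein of high-density lipoprotein, was at 1518, 2786 and 909 CPM, against 2066 to 6908 CPM in the other 17. Ttr, which encodes transthyretin, was at 1297, 2304 and 436 CPM, against 964 to 3834 CPM, so neither gene separated all 3 from the rest. Trf, Fetub and Serpina6 were below the median of the other 17 in all 3 mice, as Apoa1 and Ttr were. Apoa2 went the other way, at 22321, 19302 and 13031 CPM against a median of 4189 CPM. Alb, Ahsg, Rbp4 and F12 lay on both sides of their medians.

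Cytokines that drive the response were scarcely measured. Of the list of 21 cytokines, receptors and transcription factors, 17 were tested; Il6, Osm, Lif and Tnf did not pass the count filter, and Tnf had 0 counts in every library. Il1b was at 14.2, 7.36 and 47.4 CPM in WT chow replicate 4, WT NASH replicate 4 and KO chow replicate 5, against 1.25 to 11.5 CPM in the other 17. Cebpd, a C/EBP factor, was at 50.8, 27.7 and 66.1 CPM against 5.27 to 32.2 CPM, and Socs3, a feedback inhibitor of cytokine signalling, at 20.8, 13.2 and 11.7 CPM against 5.45 to 11.9 CPM. In each, 2 of the 3 mice lay above all 17.

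Of these 17 genes, 3 receptors were called. Il1r1, the signalling receptor of interleukin 1, fell by 1.89 on the log2 scale in KO chow against WT chow (adjusted p = 0.00162; 84.3 ± 38.1 to 22.7 ± 3.46 CPM, SD, n = 5) and rose by 1.64 in KO NASH against KO chow (adjusted p = 0.0101), with no overlap in either and in each analysis that left out 1 library. Its partner Il1rap fell by 1.12 in KO chow (adjusted p = 0.0395), a call lost without WT chow 3, 4 or 5, WT NASH 5, or KO chow 1, 2, 3 or 5 (adjusted p up to 0.111). Lifr, the receptor of leukaemia inhibitory factor, fell by 1.83 in KO NASH against WT NASH (adjusted p = 0.000401; 327 ± 37.7 to 92.1 ± 11.2 CPM), with no overlap, and was called whichever library was left out. These are the 4 calls of the list. In KO chow against WT chow 2 were lower (11.8% of the list, against 5.53% of all genes). In KO NASH against WT NASH 1 was lower (5.88%, against 9.65%), and in KO NASH against KO chow 1 was higher (5.88%, against 3.29%). In WT NASH against WT chow edgeR called 0 of 17 (5.93% of all genes), with 3 under 0.05 before adjustment. By DESeq2 it was 1 and by limma voom 7.

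Among 8 receptors and partners of the member proteins, edgeR called 1 gene in 1 comparison (12.5% of the list, against 3.29% of all genes). It was Fpr2, a receptor for serum amyloid A, in KO NASH against KO chow (-3.01, adjusted p = 0.0465, 11.5 ± 17.7 to 1.41 ± 0.289 CPM, SD, n = 5). That call was lost in 13 of 20 analyses that left out 1 library, all but those without WT chow 1, 4 or 5, WT NASH 1 or 4, or KO chow 2 or 3 (adjusted p up to 0.244). In the 3 high mice Fpr2 was at 14.1, 11.5 and 42.8 CPM, against 1.01 to 7.91 CPM in the other 17. The pattern-recognition receptors Tlr2 (9.88, 9.42 and 18.5 CPM against 1.59 to 7.53) and Tlr4 (18.7, 12.4 and 12.8 CPM against 4.74 to 11.5) were also highest in these 3 mice. Thus 3 of the 8 had all 3 mice above the other 17, as 5.81% of all tested genes did. Scarb1 (61.2, 103 and 51.8 CPM against a median of 139), Lrp1 and Hmox1 were below the median of the other 17 in all 3. Cd163 and Slc22a17 lay on both sides of it. The 3 mice were picked by the members' values, so this is no test. In the remaining 3 comparisons of groups edgeR called 0 of the 8, with 1 or 2 under 0.05 before adjustment; by DESeq2 it was 0 or 1 and by limma voom 1 to 3.

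Zinc handling was looked at beside the metallothioneins, with 9 genes all tested. Slc39a4, a zinc importer, was higher in WT NASH than in WT chow (1.86, adjusted p = 0.00778) and in KO chow than in WT chow (1.61, adjusted p = 0.0191, lost without WT chow replicate 3 at adjusted p = 0.0504). Slc39a5, a zinc transporter at a low level, was higher in KO chow than in WT chow (3.17, adjusted p = 0.0166; 0.635 ± 0.144 to 5.76 ± 4.35 CPM, SD, n = 5) and in KO NASH than in WT NASH (2.52, adjusted p = 0.028), the latter lost without WT NASH 2, 4 or 5 or KO NASH 2 or 3 (adjusted p up to 0.0878). Slc30a10, a manganese exporter, fell by 2.09 in KO NASH against WT NASH (adjusted p = 0.00861; 48.1 ± 14.8 to 11.3 ± 8.56 CPM) and by 1.69 in KO chow against WT chow (adjusted p = 0.0381), the latter lost without WT chow 1, 3 or 4 or KO chow 1, 2 or 4 (adjusted p up to 0.105). Slc39a14, an importer of zinc, iron and manganese, was higher in KO NASH than in KO chow (1.06, adjusted p = 0.0363, lost without KO chow 1, 2, 4 or 5 or any KO NASH replicate, adjusted p up to 0.0845). In all, 1 gene was called higher in WT NASH, 2 higher and 1 lower in KO chow, 1 higher and 1 lower in KO NASH against WT NASH and 1 higher in KO NASH against KO chow. In that order these were 11.1%, 33.3%, 22.2% and 11.1% of the list, against 5.93%, 5.53%, 9.65% and 3.29% of all tested genes. Mtf1, the zinc sensor of the metallothionein promoters, was called by edgeR in none of the comparisons.

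Glucocorticoid response genes numbered 8, and the metallothioneins are known targets of the same receptor. Tsc22d3, a glucocorticoid-induced leucine zipper protein, went from 66 ± 17.4 CPM in WT chow to 189 ± 34.1 in WT NASH (SD, n = 5) and from 24.6 ± 12 in KO chow to 60.8 ± 19.9 in KO NASH. It was called in all 4 comparisons by edgeR: 1.51 for WT NASH against WT chow (adjusted p = 0.00717), -1.43 for KO chow against WT chow (adjusted p = 0.0116), -1.63 for KO NASH against WT NASH (adjusted p = 0.00303) and 1.31 for KO NASH against KO chow (adjusted p = 0.0301). The last was lost without KO chow 1, 2, 4 or 5 or KO NASH 1, 2, 4 or 5 (adjusted p up to 0.0739), and the first was lost with sex as a term (adjusted p = 0.152). Zbtb16, a zinc finger repressor, fell by 2.72 in KO chow against WT chow (adjusted p = 0.00648) and rose by 3.37 in KO NASH against KO chow (adjusted p = 0.00468).

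The glucocorticoid receptor itself, Nr3c1, fell by 0.64 in KO NASH against WT NASH (adjusted p = 0.027; 112 ± 6.98 to 72.1 ± 6.17 CPM, SD, n = 5). All 5 KO NASH mice lay below all 5 WT NASH mice, and its call was lost without WT NASH 2, 3 or 5 or KO NASH 1, 3 or 5 (adjusted p up to 0.0729). Dusp1, a phosphatase induced by glucocorticoids and stress, rose by 1.89 in WT NASH (adjusted p = 0.00701), a call lost with sex as a term (adjusted p = 0.216). By edgeR 2 of the 8 (25%) were called in each comparison of groups: higher in WT NASH against WT chow (5.93% of all genes called), lower in KO chow against WT chow (5.53%), lower in KO NASH against WT NASH (9.65%) and higher in KO NASH against KO chow (3.29%). In the same order DESeq2 called 2, 2, 3 and 2, and limma voom 6, 2, 4 and 3, with these directions. In the interaction edgeR, DESeq2 and limma voom called 0, with 2 under 0.05 before adjustment in edgeR.

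The 25 calls of these lists were not equally firm. With sex as a term 10 were lost: those of Cd14, Mbl2, Slc30a10 and Nr3c1 in KO NASH against WT NASH, Rbp4, Slc39a4, Dusp1 and Tsc22d3 in WT NASH against WT chow, Il1rap in KO chow against WT chow, and Fpr2 in KO NASH against KO chow. Without the 6 libraries of negative slope 10 were lost. They were Slc39a5, Slc30a10, Slc39a4 and Tsc22d3 in KO chow against WT chow, and Rbp4, Slc39a4, Dusp1 and Tsc22d3 in WT NASH against WT chow. Cd14 in KO NASH against WT NASH and Fpr2 in KO NASH against KO chow were the others. Without the 3 libraries of highest members 4 were lost: Cd14, Mbl2 and Slc39a5 in KO NASH against WT NASH, and Fpr2 in KO NASH against KO chow. A set of 8 calls held in all of these and whichever library was left out: both of Il1rn, both of Il1r1, both of Zbtb16, that of Lifr, and that of Tsc22d3 in KO NASH against WT NASH.

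Markers of other cells were read beside these results. Of 11 neutrophil markers 7 were tested and edgeR called 0 in any comparison, with 1 under 0.05 before adjustment in WT NASH against WT chow, a comparison in which DESeq2 called 1 and limma voom 2. Ly6g, Mpo, Elane and Camp were near 0, each at 1.60 CPM or below in every library. The sum of all 11 ranged over 6.75 to 35.8 and 12.7 to 42.4 CPM in WT mice (chow, then NASH diet) and over 8.56 to 60.8 and 8.34 to 37.0 CPM in KO mice. In 0 of the 11 did all 3 high mice lie above the other 17; S100a9, for one, was at 14.7, 5.74 and 27.0 CPM in them against 1.41 to 15.9 CPM. In 1 of 8 macrophage markers, Vsig4, all 3 lay above the rest, at 216, 203 and 197 CPM against 28.7 to 116 CPM. Cd68 was at 7.50, 14.7 and 12.5 CPM in them, against 3.46 to 19.8 CPM in the other 17, and Csf1r at 68.3, 63.6 and 67.0 CPM against 30.8 to 118 CPM. Adgre1 was at 60.4, 48.3 and 154 CPM in the 3, against a median of 25.5 CPM in the other 17. Clec4f was at 253, 180 and 182 CPM, against a median of 116 CPM. Timd4 and Gpnmb were also above the median of the other 17 in all 3, and Marco, Cd68 and Csf1r were not. The macrophage sum was 320.1 to 575 CPM in WT NASH and 230.5 to 295 CPM in KO NASH, and of its markers Timd4 fell by 1.41 (adjusted p = 0.0408) and Gpnmb rose by 4.22 (adjusted p = 0.00177) in KO NASH against WT NASH. Of 6 hepatocyte markers 1 (16.7%, against 9.65% of all genes), Serpina1c, fell in KO NASH against WT NASH (-1.14, adjusted p = 0.0297). The 5 adipocyte markers summed to 0.452 to 0.969 CPM in WT NASH and 3.59 to 54.5 CPM in KO NASH, a sum carried by Cfd (up to 54.4 CPM), while Adipoq, Plin1, Retn and Lep were at 0.545 CPM or below in every library. The 6 pancreatic acinar markers summed to 11.9 to 109 CPM in WT NASH and 3.41 to 4.70 CPM in KO NASH, carried by Cela1 (up to 107 CPM), while each of the other 5 was at 1.62 CPM or below. The pancreatic transcripts Prss1 and Amy2a5 and the adipocyte transcript Lep had 0 counts in every library. The part of these cells in the members' levels was not tested.

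The genes most like each member over the 20 libraries, by Pearson's r of log2(CPM + 0.5) among genes averaging 5 CPM or more, are given as a description; all points share the 3 high mice, so r over the other 17 libraries stands beside it. For Saa1 they were Dnajc12 (0.89, and 0.57 over 17), Scfd1 (0.88, 0.43) and Mbip (0.88, 0.59). For Saa2 they were Cxcl9 (0.88, 0.50), Dnajc12 (0.87, 0.49) and Fcer1g (0.86, 0.49). The values for Saa3 were 0.86 with Polr3k, 0.85 with Zfp932 and 0.84 with Zfp938, and 0.65, 0.61 and 0.58 over 17. Orm2 was most like Fcer1g (0.94, 0.79), Clec7a (0.93, 0.78) and Clec12a (0.92, 0.75), and Lcn2 was most like Clec7a (0.84, 0.58), Tlr13 (0.83, 0.61) and Ccr2 (0.81, 0.49).

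Orm1, Hp and Hpx kept their likeness without the 3 mice. The other 17 libraries still held WT chow replicates 3 and 5 and KO chow replicate 4, of negative slope. For these genes they lay above the libraries of their groups without a negative slope, and r without them was not taken. Orm1 was most like Pex2 (0.97, and 0.92 over 17), Zfp959 (0.97, 0.92) and 0610037L13Rik (0.97, 0.94). Hp was most like Atp6ap1 (0.96, 0.94), Slc39a1 (0.94, 0.89) and Il11ra1 (0.93, 0.92), and Hpx was most like Ssr3 (0.96, 0.89), Ppib (0.96, 0.90) and Zfp959 (0.95, 0.91). For Mt1 the nearest genes were Zbp1 (0.83, 0.73), Ifi44 (0.83, 0.71) and Yipf6 (0.82, 0.67), and for Mt2 they were Yipf6 (0.87, 0.77), Zfp945 (0.84, 0.72) and Zbp1 (0.82, 0.75). Among the members themselves the median r of the 45 pairs was 0.69 over 20 libraries and 0.28 over 17. Without the 3 mice 5 pairs had an r of at least 0.8: Saa1 with Saa2 (0.89), Mt1 with Mt2 (0.95), and the 3 pairs among Orm1, Hp and Hpx (0.96 for Orm1 with Hpx, 0.88 for Orm1 with Hp and 0.86 for Hp with Hpx).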

How the data were processed

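Bulk RNA-seq of liver was measured in 20 mice, 5 in each of 4 groups. The authors deposited 1 table of raw read counts per gene symbol and library; reads were aligned with HISAT2 2.0.4 and the genome build was GRCm38, per the submitters' processing notes. For the counting program, its annotation and its use of strand, the sources used here give nothing. RNA with an integrity number over 8.0 was held fit for libraries, per the labels' protocols. Column names carry "HFD" where the sample titles name the NASH diet, and they were matched by genotype, diet and number. Totals per library run from 9958935 to 20601955 counts, and no column was left out.

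Counts were analysed with edgeR 4.0.16 in R 4.3.3: genes were kept by filterByExpr (minimum count 10), libraries were scaled by TMM, all 20 were fitted with 1 coefficient per group, and 5 contrasts were tested by the quasi-likelihood test with Benjamini-Hochberg adjustment over 14440 genes. CPM values use the TMM-scaled totals. Fold changes are log2, with an SE taken from the fold and its F value. Transcript lengths came from GENCODE M21 for 93.5% of tested genes, and promoter sequences from RefSeq, aligned with Biopython 1.88. The fit was tested on simulated data. Alternatives, 36 in all, changed the scaling, filter, tool (DESeq2 1.42.0; limma 3.58.1 voom), groups in the fit, sex, length slope or replicate number as terms, and the libraries used; those without the 3 libraries of highest members, the 6 of negative slope or the 2 of lowest metallothioneins were chosen after seeing the data.

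The members and lists were chosen with earlier results of these data known. Named are all members, the 4 cluster relatives, at most the 3 called genes of largest fold in each list and comparison, and the 3 genes most like each member. Apcs, Apoa1, Ttr, Il1b, Cebpd, Socs3, Tlr2, Tlr4, S100a9, Vsig4, Cd68, Csf1r, Adgre1, Clec4f, Marco, Timd4, Gpnmb, Cfd, Cela1, Serpina1c, Hbb-bs, Hbb-bt and Alas2 are named after their values were seen. So are Osmr, Cebpb, Nfkbiz, Il6ra, Stat3, Il6st, Jak1, Nfkb1, Rela, Tnfrsf1a, Trf, Fetub, Serpina6, Apoa2, Alb, Ahsg and F12. The same holds for Scarb1, Lrp1, Hmox1, Cd163 and Slc22a17. Replicates are separate mice per the labels, and the spread between them sets the p-values. 1 library per mouse means that technical and animal spread are not separated.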

Additional observations from a re-analysis of the deposited data

Results flagged for a closer look

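Each of the 10 members was looked at within each group of 5 mice, and a value was marked where its gap to the nearest mouse, on the log2(CPM + 0.5) scale, was more than 0.71 of the group's range. Of 40 such sets, 11 met this, in 6 genes and 5 mice; chance alone marks about 5 percent of sets, and sets of the same mouse are not independent.

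WT NASH replicate 4 was marked for 6 genes. It was highest for Saa2 (4034 CPM, the next mouse at 86.1), Saa3 (96.4 CPM, next 7.53), Orm1 (5102 CPM, next 805), Lcn2 (231 CPM, next 72.3), Hp (7946 CPM, next 3090.1) and Hpx (25417 CPM, next 5310.5). WT chow replicate 4 was marked for Saa2 (1004 CPM, next 31.4), and KO chow replicate 5 for Saa2 (823 CPM, next 32.4) and Lcn2 (427 CPM, next 61.6).

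In KO NASH the marked mice were others. Replicate 1 was lowest for Saa3 (0.341 CPM, the next mouse at 6.61), and replicate 2, the female of the group, was highest for Orm1 (704 CPM, next 535).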

How the results depend on the processing

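In KO NASH against WT NASH 2 members were called, and the count stayed within 1.5 times of that in 21 of 36 alternatives. It was 0 with a replicate block, with sex, with the length slope or with both as terms, in females alone, with KO NASH replicates 1 and 5 merged (their counts were the closest of any pair) and without KO NASH replicates 3 and 4, and it was 8 in males alone, a fit in which WT NASH is replicate 4 alone and its spread is taken from the other groups, so that it gives no evidence on genotype. Leaving out 1 library gave counts of 0 to 3. With the replicate block Mt1 was at -2.03 (adjusted p = 0.0672) and Mt2 at -2.96 (adjusted p = 0.0597). Same-numbered libraries of different groups had a mean correlation of 0.0761, with a lowest value of -0.405, and different-numbered ones had a mean of -0.0189. Of the 20 libraries, 6 matched best with their own number. Whether mice of the same number shared any handling was not tested. Elsewhere limma voom called 3 members in WT NASH against WT chow, 3 in KO chow against WT chow and 1 in the interaction, and the slope term gave 1 in KO NASH against KO chow; the other alternatives gave 0.

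Among the acute-phase members these log2 fold changes of KO NASH against WT NASH turned positive, none of them called; the cause was not tested. With limma voom Hp was at 0.18. With the replicate block Lcn2 was at 0.22 and Hp at 0.0058. In females alone Saa1 was at 0.18, Saa2 at 0.54, Saa3 at 0.65, Orm1 at 0.13, Orm2 at 0.24, Lcn2 at 1.38, Hp at 0.31 and Hpx at 0.13. In that fit KO NASH is replicate 2 alone, and WT NASH replicate 4, a male, is left out. Replicate 2 was the highest KO NASH mouse for Saa1, Saa2, Orm1, Orm2, Lcn2 and Hpx, so these values give no evidence on genotype. With the slope as a term Saa3 was at 0.075, Orm2 at 0.0092, Lcn2 at 0.77 and Hp at 0.42, and with sex and slope Lcn2 was at 1.06 and Hp at 0.47. Without the 3 libraries of highest members Saa3 was at 0.24, Lcn2 at 0.41 and Hp at 0.26, and without the 6 of negative slope at 0.24, 0.40 and 0.26. Without KO NASH replicates 3 and 4 Lcn2 was at 0.38. Leaving out 1 library gave -2.12 to 0.24 for Saa3, -0.59 to 0.41 for Lcn2 and -0.30 to 0.25 for Hp.

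The number of all genes called in KO NASH against WT NASH was 1393 in the main analysis, 3434 with limma voom, 2196 with DESeq2, 625 with sex as a term and 21 in females alone. The males-alone fit moved the median of all genes to 0.195 in that comparison. With 5 mice a group, a spread of 125% and 139% within groups for Saa1 and Saa2, and 8 counts of Saa3 in its lowest library, differences of several fold in these 3 genes could miss the threshold.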
